A study of Mus musculus with 12 samples.

Results

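Enzymes that add methyl groups to histone lysines and to protein arginines, or take them off lysines, were examined in whole lungs of miR-30a-/- mice after neonatal hyperoxia. Members were the protein-coding genes of the count table with a symbol of the Kmt, Kdm, Setd, Ezh, Ehmt, Suv39h, Nsd, Dot1l, Smyd or Prmt series. The 3 sex-linked demethylase genes Kdm5c and Kdm6a (X) and Kdm5d (Y) were set aside. This gave 54 genes of 55487 in the table, and all 54 passed the filter on low counts, which kept 45828 genes.

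The 12 lungs came from C57BL/6J mice in which CRISPR/Cas9 had removed the whole miR-30a gene from every cell, so controls and exposed pups alike lacked it. Pups breathed 95% FiO2 on postnatal days (PND) 1 to 5 or room air, with 3 lungs of each sex in each exposure, all taken on PND 21. Pups of several litters had been mixed and shared out between the exposures, the lungs were perfused with saline and frozen whole, and no litter is given for a lung. Total RNA was sequenced after removal of ribosomal RNA. Counts per lung summed to between 8763033 and 16741694, and the members took 0.357% to 0.545% of them.

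Methyl groups on histone tails serve as marks that other proteins read. Methylation of H3 lysine 4 (H3K4) accompanies active promoters and enhancers, that of H3K36 and H3K79 accompanies transcribed gene bodies, and that of H3K9, H3K27 and H4K20 accompanies silenced or compacted chromatin. Lysine marks are written mostly by SET domain enzymes (DOT1L is an exception) and removed by the flavin-dependent LSD enzymes or the iron- and oxoglutarate-dependent JmjC enzymes, which use molecular oxygen as a substrate. Arginines are methylated by the PRMT family, on histones and on many RNA-binding proteins.

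Before the values, the labels were checked. Mir30a had 0 counts in all 12 lungs, which allows up to 3 counts (0.191 to 0.327 CPM, the count scaled to library size) in each. No WT lung was analysed here to show what this gene reads when present, so this does not check the genotype. Xist had 8834 to 27296 counts in the 6 females and 148 to 210 in the 6 males. The Y-linked gene Ddx3y had 0 counts in the females and 270 to 715 in the males. Markers of alveolar type 1, alveolar type 2, club and endothelial cells were present in every lung, with 4 of 4, 4 of 4, 3 of 3 and 4 of 4 listed genes detected. Reads also fell on families that lung is mostly not known to use, though single members such as Olfr78 are known from lung cells: 1490 olfactory and vomeronasal receptor genes together took 0.41% to 0.945% of a lung's counts. Their density per kilobase of exon served as a measure of background reads. The room air male 1 lung stood apart in skeletal muscle genes. Their summed level was 1790 CPM there against 103 to 151 CPM in the other lungs. In every lung 11 of 11 listed markers had counts above 0, which background reads can also give.

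RefSeq promoter windows (250 bases before to 50 after the start, GRCm38.p6) were found for 42 of the 54 members. The letters CG, which read the same on both strands, occurred 10 or more times in 40 of these 42 windows (95.2%), with a median of 29, against 45.8% and a median of 8 over all 27025 genes with a window. Where a gene had several starts the window with most CG was counted. The exceptions were Setd5 with 1 and the muscle gene Smyd1 with 3. The 250 bases before an annotated transcript start are shown for 3 members, chosen after their values were seen: Prmt2 (smallest p for hyperoxia over all lungs), Smyd1 (smallest p in males) and Suv39h1 (the member that differed between the sexes), with CG in capitals.
Suv39h1 (chrX:8074761-8075010, minus strand): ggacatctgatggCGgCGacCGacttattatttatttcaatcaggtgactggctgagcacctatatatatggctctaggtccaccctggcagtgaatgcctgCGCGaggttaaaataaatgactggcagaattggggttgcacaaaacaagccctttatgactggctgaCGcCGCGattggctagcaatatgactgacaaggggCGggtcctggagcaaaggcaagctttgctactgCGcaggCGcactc
Prmt2 (chr10:76237866-76238115, minus strand): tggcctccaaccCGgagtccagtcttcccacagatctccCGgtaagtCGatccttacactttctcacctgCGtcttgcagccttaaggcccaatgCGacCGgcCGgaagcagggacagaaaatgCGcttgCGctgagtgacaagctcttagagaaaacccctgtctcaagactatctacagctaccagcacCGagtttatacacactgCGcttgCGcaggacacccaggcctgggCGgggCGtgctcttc
Smyd1 (chr6:71262282-71262531, minus strand): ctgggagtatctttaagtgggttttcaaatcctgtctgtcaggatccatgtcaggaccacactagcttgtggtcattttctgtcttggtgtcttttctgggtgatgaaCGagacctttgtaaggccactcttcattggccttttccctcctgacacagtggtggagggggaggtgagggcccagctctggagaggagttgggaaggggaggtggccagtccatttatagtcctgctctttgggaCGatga
The printed window of Suv39h1 held 11 CG (its other start, with 37 CG in 300 bases, was the one counted above), that of Prmt2 14 and that of Smyd1 2. The windows of Suv39h1 and Prmt2 adjoin the outer end of the gene, while that of Smyd1 lies inside the counted gene (chr6:71213940-71322233), which has transcripts that start farther upstream. Of the 55 windows of the members, 46 have their bases after the start in an annotated transcript of the gene. This is a description of the letters only.

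To set genes of different length side by side, levels were taken as CPM per kilobase of exon, averaged over the 12 lungs. Among the writers, H3K4 methyltransferases of the KMT2 family lay at the top. Kmt2e, whose SET protein binds H3K4 methylation but has little known enzyme activity, had 22.4 CPM per kilobase (SD 5.41, n = 12) and Kmt2d, the main H3K4 mono-methyltransferase of enhancers, 22.3 (SD 4.95, n = 12). They were followed by Kdm6b, a JmjC demethylase of H3K27, at 21.2 (SD 4.39, n = 12). These 3 differed by less than their spread over lungs. Next in order were Nsd1 (17.9) and Setd2 (14.6), which methylate H3K36.

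**Figure D1:**
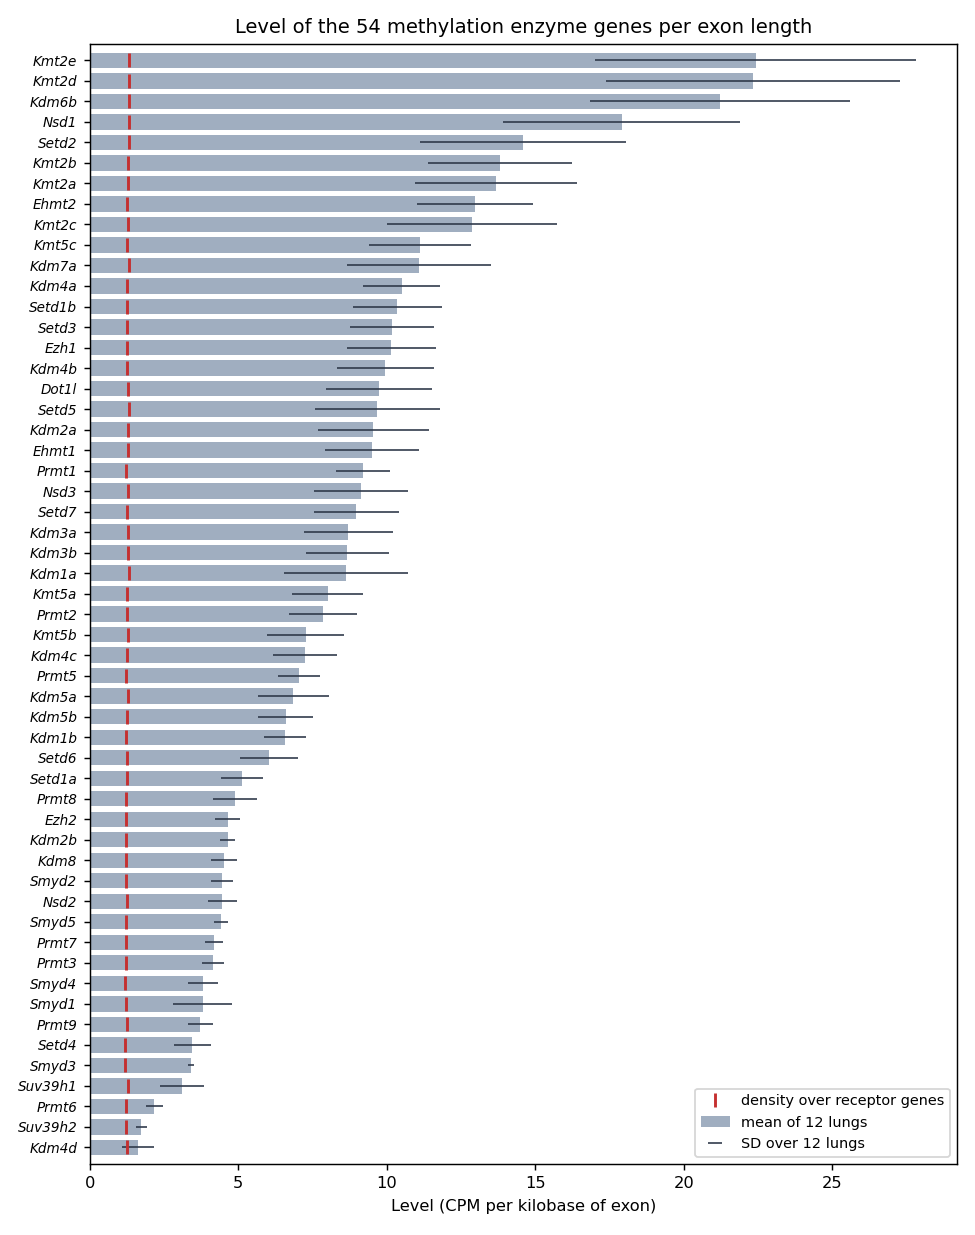
Bars give the mean level of each of the 54 genes over 12 lungs in CPM per kilobase of exon. Lines give the SD over the 12 lungs. Red ticks give that level times the mean share, over lungs, of the gene's counts that olfactory and vomeronasal receptor gene density would make up. Kmt2e, Kmt2d and Kdm6b lie above 20, and the bars of Kdm4d and Suv39h2 reach little past the tick.

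Lowest were Prmt6, which places asymmetric dimethylation on H3R2, at 2.18 CPM per kilobase (SD 0.283), Suv39h2, an H3K9 trimethylase, at 1.74 (SD 0.186), and Kdm4d, a demethylase of H3K9, at 1.62 (SD 0.531). As a mean of the shares in single lungs, receptor gene density came to 56.4% of the level of Prmt6, 69.5% of that of Suv39h2 and 76.7% of that of Kdm4d. Little of their signal thus stood over the background. Kdm4d had 39 to 91 counts a lung and the pseudogene Kdm4dl, 17 to 41, and whether reads were shared between them was not tested. For Kmt2d, Kmt2e and Kdm6b the same share was 5.89% to 6.15%. It was 41.9% for Suv39h1, 32.1% for Smyd1, 25.2% for Prmt8 and 15.9% for Prmt2.

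Values of single lungs are in CPM and come in one order throughout: room air males 1, 4 and 5, hyperoxia males 1, 2 and 3, room air females 2, 5 and 6, and hyperoxia females 2, 4 and 5. Kmt2d had 338, 480.0 and 397 CPM in room air males, 544, 299.9 and 482 CPM in hyperoxia males, 562, 616 and 425 CPM in room air females, and 477, 374 and 343 CPM in hyperoxia females. Kmt2e had 168, 250.4 and 199.8 CPM in room air males, 306, 157 and 246 CPM in hyperoxia males, 289, 336 and 229.5 CPM in room air females, and 251, 178 and 199 CPM in hyperoxia females. Kdm6b had 101, 144 and 135 CPM in room air males, 179, 106 and 149 CPM in hyperoxia males, 180.4, 204 and 151 CPM in room air females, and 165, 129 and 129 CPM in hyperoxia females. All 3 were highest in room air female 5, and each was lowest in hyperoxia male 2 or room air male 1, so the spread within a group was wide: hyperoxia males 1 and 2, of one group, lay near opposite ends of the range. Prmt6 had 8.47, 9.91 and 8.19 CPM in room air males, 10.8, 7.95 and 9.30 CPM in hyperoxia males, 9.01, 9.35 and 8.22 CPM in room air females, and 7.96, 8.68 and 11.8 CPM in hyperoxia females. Suv39h2 had 7.89, 7.65 and 8.59 CPM in room air males, 7.31, 7.84 and 6.72 CPM in hyperoxia males, 5.89, 8.40 and 7.82 CPM in room air females, and 8.92, 7.30 and 7.73 CPM in hyperoxia females. Kdm4d had 7.55, 3.74 and 5.54 CPM in room air males, 2.88, 6.42 and 3.69 CPM in hyperoxia males, 3.11, 2.61 and 5.69 CPM in room air females, and 4.81, 4.34 and 5.33 CPM in hyperoxia females. Kdm4d was highest in room air male 1 and lowest in room air female 5, where the abundant members were highest, and its groups overlapped.

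The first question was whether hyperoxia on PND 1 to 5 left a difference on PND 21 in the mean of the changes of both sexes. A change in 1 sex alone can drive this mean, and opposite changes cancel in it. A gene was called where its Benjamini-Hochberg adjusted p over all genes in edgeR's quasi-likelihood test was under 0.05 and its fold over 1.5. None of the 54 members was called, against 0.0415% of all genes tested, and the smallest adjusted p of a member was 0.927. At an unadjusted p under 0.05, 1 member was higher (Prmt8; 2.67% of all genes) and 1 was lower (Prmt2; 2.52% of all genes). DESeq2 called none either, with 1 member lower (2.68% of all genes) and none higher at an unadjusted p under 0.05. RUVr, which adds factors of unwanted variation estimated from the residuals, also called none with 1 factor, but had 18 members lower and 1 higher at that p, against 10% and 6.44% of all genes. Such factors come from residuals of the same fit of the groups. They narrow the spread within groups and cannot take out variation between lungs that runs with the exposure. In bulk lung, fewer cells of a type and less RNA per cell cannot be told apart.

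By sign alone, 45 members lay lower after hyperoxia and 9 higher, with a median log2 change of -0.069. The median over all genes tested was 0.031, and over the 16437 genes with a mean of at least 100 counts, a mean that all members but Suv39h2 and Kdm4d reached, it was -0.047, with 62.5% of those genes lower. The SD of the members' median between lungs of a group was 0.17, and without hyperoxia male 2 the median was -0.0095, without hyperoxia male 1 -0.14. With the receptor gene share of each lung as a covariate 32 members lay higher and 22 lower (median 0.015). With receptor gene density subtracted from the counts 21 lay higher and 33 lower (median -0.037). No member had its 6 hyperoxia lungs all above or all below its 6 room air lungs (0.0938% and 0.12% of all genes did).

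Among the arginine methyltransferases, Prmt2, a weakly active member that also binds nuclear receptors, had the smallest p. Its levels were 24.5, 30.1 and 32.5 CPM in room air males, 28.3, 20.7 and 24.3 CPM in hyperoxia males, 30.3, 31.4 and 26.3 CPM in room air females, and 22.7, 23.5 and 24.1 CPM in hyperoxia females. The hyperoxia females lay below all room air females, and in the males the groups overlapped through room air male 1 and hyperoxia male 1. Room air lungs averaged 29.2 CPM (SD 3.12, n = 6) and hyperoxia lungs 23.9 (SD 2.50, n = 6). The log2 change was -0.29 (SE 0.11; 95% interval -0.50 to -0.067; edgeR adjusted p = 0.927). With RUVr the adjusted p of Prmt2 was 0.00562 with 1 factor and 0.0044 with 2, the fold staying under 1.5. With 1 factor 6 of 54 members, Prmt2 included, were lower at an adjusted p under 0.05 (4.05% of all genes were). At that p 0 were higher (0.469%), and none passed the fold. Over 23 alternatives the lowest Benjamini-Hochberg adjusted p for hyperoxia over all lungs was 0.00214 for Kdm7a and 0.0368 for Dot1l.

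Prmt8, a membrane-bound PRMT known mainly from neurons, went the other way. It had 10.5, 14.4 and 11 CPM in room air males, 14.8, 15.5 and 16.2 CPM in hyperoxia males, 11.8, 10.8 and 13.8 CPM in room air females, and 15.6, 12.6 and 12.6 CPM in hyperoxia females. In males the 3 hyperoxia lungs lay above the 3 room air lungs, while in females the groups overlapped. Room air lungs averaged 12 CPM (SD 1.67, n = 6) and hyperoxia lungs 14.5 (SD 1.57, n = 6). The log2 change was 0.27 (SE 0.11; 95% interval 0.038 to 0.51; edgeR adjusted p = 0.927). Of the neuron markers, 4 of 4 were detected in all lungs. Their summed level ran from 52.4 to 73.6 CPM in room air and from 65.3 to 80.4 CPM after hyperoxia (difference 6.97 CPM, p = 0.13 in an exact permutation test within sex, two-sided, of which the smallest possible value is 0.005), and receptor gene density equalled 21.3% to 61.6% of the single neuron markers. These percentages are ratios of means over lungs, not means of the shares in single lungs. The part of the neuron markers in the value of Prmt8 was not tested.

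Of the other PRMTs, Prmt3, which methylates a ribosomal protein, had 27.1, 26.7 and 25.4 CPM in room air males, 24.7, 19.9 and 27.1 CPM in hyperoxia males, 23.6, 27.6 and 25.4 CPM in room air females, and 22.7, 24.4 and 23 CPM in hyperoxia females. Prmt9, a splicing factor methyltransferase, had 21.4, 22.4 and 20.2 CPM in room air males, 25.1, 16.6 and 20.3 CPM in hyperoxia males, 23.3, 22.7 and 22.1 CPM in room air females, and 21.6, 19.8 and 17.6 CPM in hyperoxia females. Both overlapped between exposures over all lungs, with log2 changes of -0.13 (SE 0.10) and -0.12 (SE 0.11). Prmt1, the major asymmetric arginine methyltransferase, and Prmt5, the major symmetric one, had log2 changes of -0.042 and -0.020. Over the 8 PRMTs, 3 lay higher and 5 lower, with a median of -0.031.

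The 2 LSD-type demethylases were among the 10 members with the smallest p. Kdm1a (LSD1), which removes H3K4 methylation in corepressor complexes, had 35, 46.6 and 40.1 CPM in room air males, 56.3, 30.6 and 48.9 CPM in hyperoxia males, 58.4, 64.9 and 40.5 CPM in room air females, and 42.8, 31.2 and 40.6 CPM in hyperoxia females. Kdm1b (LSD2), its relative on gene bodies, had 32.8, 37.7 and 32.6 CPM in room air males, 35.3, 36.6 and 33.7 CPM in hyperoxia males, 40.3, 45 and 39.2 CPM in room air females, and 36, 31.4 and 33.2 CPM in hyperoxia females. Over all lungs their log2 changes were -0.18 (SE 0.15) and -0.14 (SE 0.10), both with an edgeR adjusted p of 0.927 and with the groups overlapping. In the JmjC family 12 of 13 genes lay lower, at a median of -0.046. Its lowest was Kdm7a, a demethylase of H3K9 and H3K27, at -0.23 (SE 0.16, edgeR adjusted p = 0.927), and its only higher value that of Kdm3a at 0.0020. Kdm6b stood at -0.075, Kdm2a, a demethylase of H3K36, at -0.16 and Kdm3b at -0.030 (24.6% of the exon bases of Kdm3b are shared with an opposite-strand lincRNA).

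On the side of the lysine writers, 10 of 11 H3K4 enzymes lay lower (median -0.094), with Kmt2d at -0.15, its paralog Kmt2c at -0.11, Kmt2e at -0.12 and Kmt2a, the MLL1 gene, at -0.10. All 4 H3K36 enzymes lay lower (median -0.12), as did both H3K27 enzymes of Polycomb repressive complex 2, Ezh1 (-0.033) and Ezh2 (-0.070). Of the 4 H3K9 enzymes 3 lay lower (median -0.023). Dot1l, the H3K79 methyltransferase, had 71.5, 86.2 and 75.3 CPM in room air males, 96.1, 60.2 and 87.4 CPM in hyperoxia males, 108, 115 and 86.9 CPM in room air females, and 81, 73 and 77.9 CPM in hyperoxia females. Its log2 change was -0.17 (SE 0.14, edgeR adjusted p = 0.927). Kmt5a, which writes H4K20 monomethylation in dividing cells, had 40.9, 44.5 and 41 CPM in room air males, 43.9, 37.8 and 36 CPM in hyperoxia males, 52, 56.1 and 37.9 CPM in room air females, and 42.6, 42.4 and 34.7 CPM in hyperoxia females. For Kmt5a the log2 change was -0.20 (SE 0.12, edgeR adjusted p = 0.927), and its sisters Kmt5b and Kmt5c stood at -0.099 and -0.050. Among the 6 other SET and SMYD proteins 3 lay higher and 3 lower. No class held a called gene, and every class other than the PRMTs had 0 genes at an unadjusted p under 0.05 in edgeR in either direction.

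Within each sex the signs parted. In females 44 of 54 members lay lower after hyperoxia (median log2 change -0.24), while in males 43 of 54 lay higher (median 0.093). The medians over all genes tested were 0.11 in females and -0.011 in males, and over genes with at least 100 counts -0.14 and 0.031. Of the latter genes 67.2% lay lower in females and 41.3% in males. No member was called in either sex, against 0.00218% of all genes in females and 0% in males. At an unadjusted p under 0.05 edgeR had 5 members lower and none higher in females (5.28% and 7.32% of all genes) and 1 higher and 1 lower in males (0.899% and 1.8%). DESeq2 also called none, with 16 members lower in females (8.53% of all genes) and 1 in each direction in males at that p (0.694% of all genes higher, 1.5% lower). RUVr with 1 factor called none as well, with 33 members lower and 1 higher in females (15% and 14.5% of all genes) and 11 higher and 3 lower in males (3.83% and 4.52%). The male median turned to -0.027 without hyperoxia male 1, was 0.043 without room air male 1, and was 0.19 without room air male 4 and 0.26 without hyperoxia male 2. Leaving out single lungs put the female median between -0.35 (without room air female 6) and -0.18 (without room air female 5). With the receptor gene share of each lung as a covariate it was 0.00010, with 27 members higher and 27 lower. The male median was then 0.033, with 36 higher and 18 lower.

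**Figure D2:**
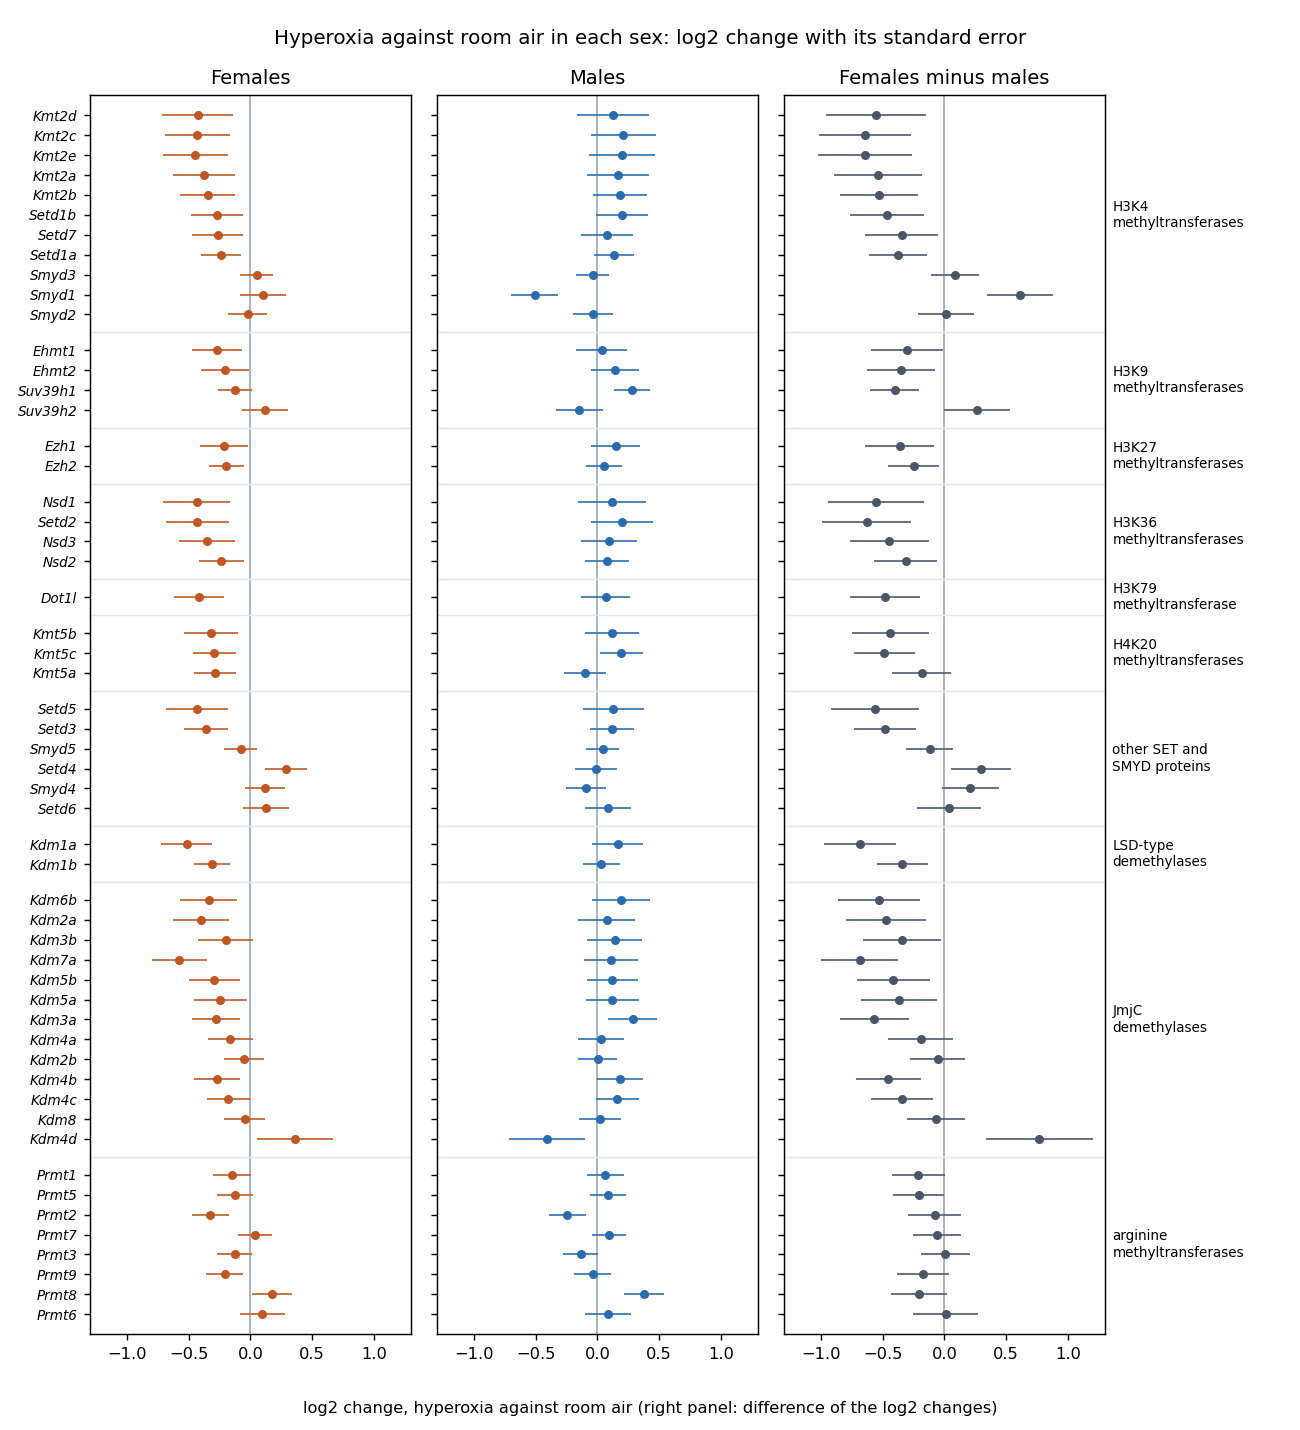
Points give the log2 change of each member between hyperoxia and room air in females (left) and males (centre) and the difference of these changes (right), bars the standard error of the fit over 12 lungs, and rows follow the enzyme classes with the most counted gene first. Most points lie left of 0 in females (44 of 54) and right of 0 in males (43 of 54), and most bars of single genes in males cross 0.

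In females the values ran from -0.58 for Kdm7a to 0.36 for Kdm4d. The 5 members at an unadjusted p under 0.05 were Kdm7a, Kdm1a, Prmt2, Kdm1b and Dot1l. Kdm7a had 86.3, 123 and 101 CPM in room air males, 137, 84 and 112 CPM in hyperoxia males, 139, 154 and 122 CPM in room air females, and 110.3, 86.4 and 82.1 CPM in hyperoxia females. Its 3 hyperoxia females lay below the 3 room air females, and the log2 change was -0.58 (SE 0.22; 95% interval -1.03 to -0.12; edgeR adjusted p = 0.357). For Kdm1a the change in females was -0.52 (SE 0.21; edgeR adjusted p = 0.357), and the groups overlapped through room air female 6. Dot1l changed by -0.42 (SE 0.20; edgeR adjusted p = 0.394), Prmt2 by -0.32 (SE 0.15; adjusted p = 0.386) and Kdm1b by -0.31 (SE 0.15; adjusted p = 0.391). With 1 RUVr factor the adjusted p in females was 7.15e-08 for Kdm7a, 2.87e-05 for Kdm1a, 5.83e-05 for Dot1l, 0.00945 for Kdm1b and 0.0166 for Prmt2. Under that setting 28 of 54 members were lower at an adjusted p under 0.05 (11.1% of all genes were) and 0 higher (5.65%). All had a fold under 1.5 (largest log2 change -0.58, that of Kdm7a). The members' median was -0.23, against -0.24 without the factor, so the factor left the changes nearly as they were. With the receptor gene share of each lung as a covariate the female changes were instead -0.23 for Kdm7a, -0.064 for Kdm1a, -0.12 for Dot1l, -0.23 for Kdm1b and -0.12 for Prmt2, with edgeR adjusted p from 0.853 to 0.997. Female groups did not overlap for 6 members, all lower after hyperoxia: Kdm7a, Prmt2, Dot1l, Kdm1b, Prmt9 and Nsd2. That is 6 of 54 lower (6.42% of all genes were) and 0 of 54 higher (10.8% of all genes were).

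Of the most counted H3K4 and H3K36 writers, Kmt2d had a log2 change in females of -0.43 (SE 0.29), Kmt2c -0.43 (SE 0.26), Kmt2e -0.44 (SE 0.27), Kmt2a -0.37 (SE 0.25), Nsd1 -0.43 (SE 0.27) and Setd2 -0.43 (SE 0.25). None had an unadjusted p under 0.05 in edgeR. Higher values in females, also short of that p, were those of Kdm4d (0.36, SE 0.31) and Setd4 (0.29, SE 0.17), whose levels per kilobase are near the low end.

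In males Smyd1 and Prmt8 had the smallest p. Smyd1, a methyltransferase needed for the sarcomeres of heart and skeletal muscle, had 30.5, 16.4 and 17.1 CPM in room air males, 13.2, 15.7 and 16.1 CPM in hyperoxia males, 15.2, 13.3 and 19 CPM in room air females, and 16.2, 16.2 and 18.5 CPM in hyperoxia females. Room air male 1 stood alone at 30.5, and the other 11 lungs lay between 13.2 and 19. The log2 change in males was -0.51 (SE 0.19; edgeR adjusted p = 1). Over 22 alternatives this change ran from -0.78 to -0.16. Its lowest Benjamini-Hochberg adjusted p among them was 0.0339, and no alternative called the gene in males. Without room air male 1, the lung with 1790 CPM of skeletal muscle markers, the change was -0.16 (adjusted p = 1). That lung also had the highest sum of 9 cardiac muscle markers, 439 CPM against 213 to 378 CPM in the rest, and the part of either list in the value of Smyd1 was not tested. Prmt8 in males had a log2 change of 0.37 (SE 0.16; edgeR adjusted p = 1). Male groups did not overlap for Prmt8 and Suv39h1, higher after hyperoxia (2 of 54, against 2.73% of all genes), and for Smyd1, lower (1 of 54, against 3.89%).

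**Figure D3:**
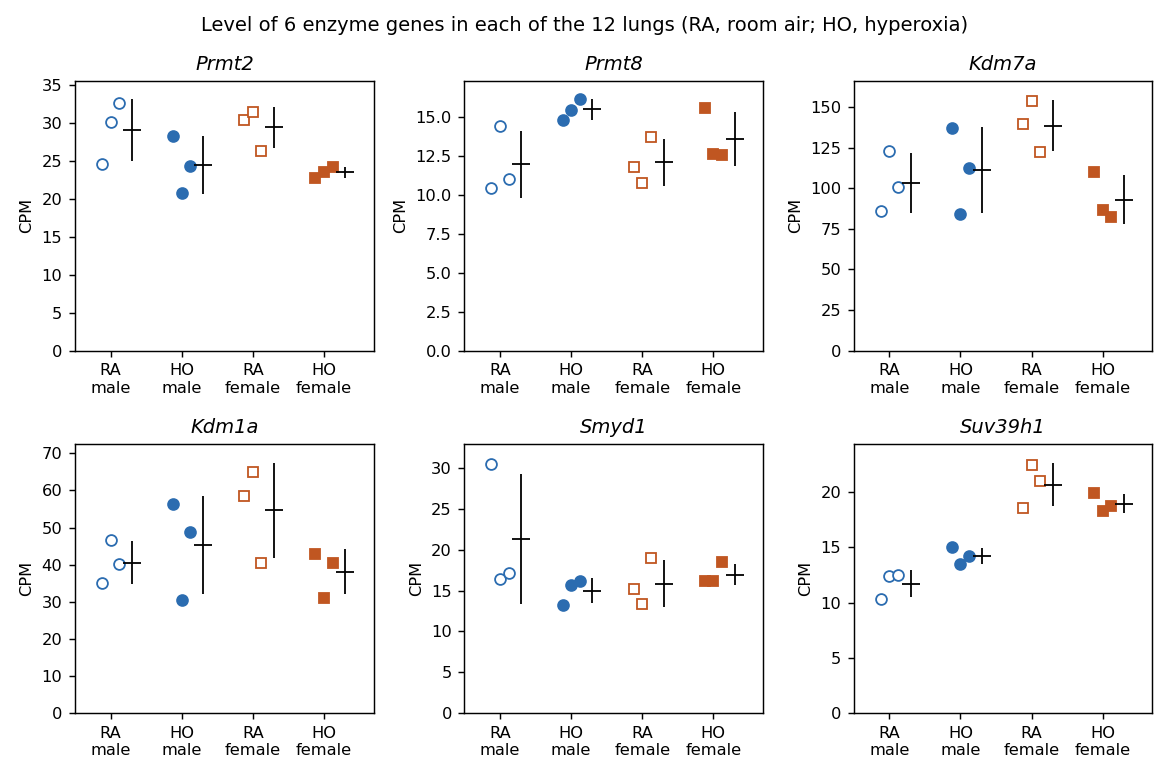
Each point is 1 lung, on a linear axis of CPM from 0, for 6 members in the 4 groups (RA, room air; HO, hyperoxia; open points room air, filled points hyperoxia), with the mean and SD of 3 lungs beside them. The hyperoxia lungs of Prmt2 and Kdm7a lie below the room air lungs in females only, 1 room air male at 30.5 CPM stands alone for Smyd1, and all 6 females lie above all 6 males for Suv39h1.

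Whether the sexes differed in their change was tested as the interaction, the change in females minus that in males. None of the 54 members was called (0% of all genes), and the smallest adjusted p was 0.578. The median was -0.34, with 44 members below 0. The medians over all genes and over genes with at least 100 counts were 0.12 and -0.18, with 41.4% and 68.4% below 0. At an unadjusted p under 0.05 edgeR had 1 member above 0 (6.06% of all genes) and 2 below (2.4% of all genes). These were Smyd1 at 0.61 (SE 0.27; 0.26 without room air male 1), Kdm1a at -0.68 (SE 0.29; 95% interval -1.28 to -0.083) and Kdm7a at -0.69 (SE 0.31; 95% interval -1.33 to -0.046). Next in order came Kdm3a, a demethylase of H3K9 whose gene is known to be induced in low oxygen, at -0.57 (SE 0.28), and Suv39h1 at -0.40 (SE 0.20), each with an edgeR adjusted p of 0.578. Kdm3a had 58.4, 72.9 and 66.7 CPM in room air males, 96.7, 63 and 81.2 CPM in hyperoxia males, 75.8, 86.2 and 68.3 CPM in room air females, and 75, 60.0 and 54.6 CPM in hyperoxia females, and its exposures overlapped in both sexes.

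The interaction depended on how variation between lungs was treated. With 1 RUVr factor 7 of 54 members were called, against 2101 genes or 4.58% of all, and they were Kdm1a, Kdm7a, Kmt2e, Kmt2c and Setd2 below 0 and Smyd1 and Kdm4d above. DESeq2 without such factors called none, with 14 members below 0 at an unadjusted p under 0.05 (4.01% of all genes). RUVr with 1 factor had 32 below 0 and 2 above at that p (12.8% and 12.7% of all genes). Whatever their fold, 28 members had an adjusted p under 0.05 with it, 26 of them below 0. Of all genes 7.9% lay below 0 and 3.79% above at that adjusted p. The median interaction was -0.33 with 1 RUVr factor and -0.21 without hyperoxia male 1. With the receptor gene share of each lung as a covariate, the members' median interaction was -0.025 with 32 of 54 below 0, none was called, and Kdm1a and Kdm7a stood at -0.11 and -0.25, both with an edgeR adjusted p of 1.

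Lung by lung, the members ran opposite to the receptor gene share and alongside several cell type marker sums. Each gene's log2 CPM was set against its own mean over the 12 lungs, and the median of these deviations was taken over the 54 genes. In the lung with the lowest share, room air female 5 (0.41%), the median deviation was 0.30, and in the lung with the highest, hyperoxia male 2 (0.945%), it was -0.24. The 4 lungs with the highest shares, 0.781% to 0.945% (room air male 1, hyperoxia male 2, hyperoxia females 4 and 5) had medians from -0.24 to -0.17, with 43 to 45 of the 54 genes below their own mean. The 3 lungs with the lowest shares, 0.41% to 0.516% (room air females 2 and 5 and hyperoxia male 1), had medians from 0.20 to 0.30, with 8 to 12 genes below. Room air lungs and hyperoxia lungs lay at both ends. The deviations were taken for the members only, so whether other well-counted genes run the same way lung by lung was not tested.

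Other measures divided the same lungs. In the 3 lungs with the lowest shares the summed markers were 747 to 873 CPM for alveolar type 1 cells, 7530 to 9330 for type 2 cells, 1620 to 1870 for endothelium and 237 to 333 for leukocytes. In the 4 lungs with the highest shares they were 361 to 556, 3570 to 4730, 833 to 1090 and 173 to 215 CPM. Total counts were 13545905 to 16741694 in the first 3 and 8763033 to 11966653 in the 4. In females these sums were 591 to 873 (type 1), 4730 to 9330 (type 2) and 1220 to 1870 CPM (endothelium) in room air, and 487 to 611, 4500 to 5650 and 1050 to 1370 CPM after hyperoxia, with the groups overlapping. Leukocyte sums (265 to 333 CPM in room air, 173 to 244 after hyperoxia) and total counts (12497449 to 16741694 and 10255870 to 11584337) did not overlap between the exposures in females. The part of cell makeup, depth or background in the values of the members was not tested.

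**Figure D4:**
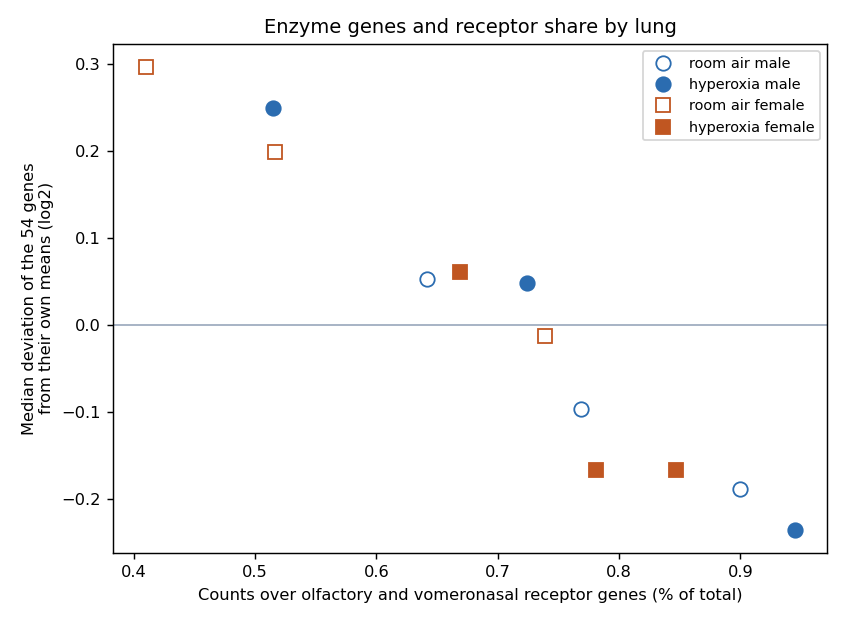
Each point is 1 of 12 lungs, placed by the percent of its counts over olfactory and vomeronasal receptor genes (x) and by the median log2 deviation of the 54 members from their own means (y), with colour and shape for sex and filled points for hyperoxia. The medians run from 0.30 at a share of 0.41% down to -0.24 at 0.945%, with both exposures at each end. Other genes were not placed in this way.

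The receptor share did not pass a test between exposures (difference 0.084 percentage points, p = 0.395 in an exact permutation test within sex, two-sided, 6 lungs an exposure). In females it was 0.516%, 0.41% and 0.739% in room air and 0.669%, 0.781% and 0.847% after hyperoxia (exact permutation p = 0.2, where 3 against 3 lungs cannot give less than 0.1). In males it was 0.9%, 0.642% and 0.769% in room air and 0.515%, 0.945% and 0.724% after hyperoxia (exact permutation p = 0.9). With the share as a covariate the members' median log2 change was 0.00010 in females, with 27 higher and 27 lower, 0.033 in males and 0.015 over all lungs. With the receptor density subtracted from each count by exon length instead, the medians were -0.14 in females, 0.064 in males and -0.037 over all lungs. No member was called in these 3 comparisons with either treatment.

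Females and males were compared over both exposures. Of the 54 members 1 was called, Suv39h1, an X-linked H3K9 trimethylase of pericentric heterochromatin that is also known as a modifier of position-effect variegation. Over all genes 1.22% were called, and 25.3% of the 1802 X-linked genes tested were called as higher in females. At an unadjusted p under 0.05 Suv39h1 was in edgeR without factors the single member that was higher (4.05% of all genes), and none was lower. With 1 RUVr factor 13 members were higher at that p (9.5% of all genes), Suv39h1 again being the one called. The median over all 54 was 0.054, against -0.032 over all genes, and without hyperoxia male 2 it was -0.0071.

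Suv39h1 had 10.3, 12.4 and 12.4 CPM in room air males, 15, 13.5 and 14.2 CPM in hyperoxia males, 18.6, 22.4 and 20.9 CPM in room air females, and 19.9, 18.2 and 18.7 CPM in hyperoxia females. All 6 females lay above all 6 males. The means were 11.7 CPM (SD 1.24) and 14.2 (SD 0.747) in room air and hyperoxia males and 20.6 (SD 1.94) and 18.9 (SD 0.826) in the females (n = 3 each). The level was higher in females by 0.61 on the log2 scale (SE 0.10; 95% interval 0.41 to 0.82; fold 1.53; edgeR adjusted p = 0.000415). In room air alone the difference was 0.81 (SE 0.14, adjusted p = 0.00299) and after hyperoxia 0.41 (SE 0.14, adjusted p = 0.405), and the change in this difference is the interaction given above, which did not pass.

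The background on the X chromosome also differed between the sexes. Over 94 X-linked genes of families mostly not known to be used in lung, the median density was 10.4 to 14 reads per kilobase in males and 23 to 31.5 in females, or 0.729 to 0.981 and 1.59 to 2.28 times that of the autosomal receptor genes. When the density of all receptor genes was subtracted alike from every gene, the difference of Suv39h1 was 1.11 (edgeR adjusted p = 0.0024) and it stayed called. When the X-linked density was subtracted from each X-linked gene, the difference was 0.16 (edgeR adjusted p = 1) and 11 genes were called between the sexes. When the density of all receptor genes was subtracted, in full in females and at 0.5 of it in males for X-linked genes, the difference was 0.46 (edgeR adjusted p = 0.275). Without room air male 1 or room air female 5 it was 0.57 and 0.58, just under the fold of 1.5, and with receptor share entered as a term it was 0.58, each with an adjusted p under 0.05. In addition 14.6% of its exon bases are shared with Gm14820 on the opposite strand, which had 21 to 63 counts a lung, and whether reads were assigned by strand is not given in the sources used here.

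A list of 53 other genes of these pathways (COMPASS and Polycomb subunits, writers and erasers outside the symbol rule, chromodomain readers and enzymes of methyl donor supply) was set beside the members. All 53 were tested and 0 were called in any of the 5 comparisons. Over all lungs 43 lay lower and 10 higher after hyperoxia (median -0.083), with 0 at an unadjusted p under 0.05 in edgeR. The 3 with the smallest p were Rbbp7, a histone-binding subunit of Polycomb and deacetylase complexes, at -0.22 (SE 0.14), Jmjd6, a JmjC oxygenase acting on splicing factors, at -0.15 (SE 0.10), and Rbbp5, a core COMPASS subunit, at -0.15 (SE 0.10), all with an edgeR adjusted p of 0.927. In females 47 of 53 lay lower (median -0.23, 4 at an unadjusted p under 0.05, against 5.28% of all genes) and in males 39 lay higher (median 0.077, 0 at that p). Of all genes with at least 100 counts, 67.2% lay lower in females and 41.3% in males.

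Among the 12 marker lists, that of red cells had the smallest p between exposures. The sum of 5 erythroid markers was 5120 to 7880 CPM in room air and 1250 to 4650 CPM after hyperoxia, with no overlap (difference -3706 CPM, exact permutation p = 0.005, the smallest possible, adjusted p = 0.07 over 14 values). The sum of the cardiac muscle markers was lower by 105 CPM (exact permutation p = 0.015, adjusted p = 0.105). All 9 cardiac and 5 erythroid markers had counts above 0 in every lung. Background reads can also give such counts: receptor gene density equalled 55.9% of the level of the cardiac marker Nppa. The part of these markers in the values of the members was not tested. Counting is uncertain for further members that share exon bases with other genes: 24 members share some, 22 of them with a gene on the opposite strand, and 5 share over 10%. The largest share was that of Setd1a, with 51.8% of its exon bases in common with Gm49388, which was listed at 0 in all lungs.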

How the data were processed

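Total RNA of 12 lungs (3 per sex and exposure) was read as gene counts. The authors trimmed reads with Trim Galore, aligned them to mm10 with STAR and deposited raw counts per gene from featureCounts, without normalization. Tool versions, annotation release and strand setting are not given in the sources used here. The labels name a NEBNext directional kit with ribosomal RNA depletion, and the methods a QIAseq stranded kit.

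Counts were fitted for 4 groups with edgeR 4.0.16 (R 4.3.3; filterByExpr, upper-quartile factors, robust quasi-likelihood), which leaves a biological coefficient of variation of 17.7%. The methods apply ComBat-seq and RUVr to these and earlier WT samples without giving the batches or the number of factors, so neither entered. P-values were adjusted over 45828 genes (Benjamini-Hochberg), with calls at 0.05 and a fold over 1.5. DESeq2 1.42.0 was an alternative. Positions and exon lengths came from GENCODE M21 (GRCm38) for 55227 of 55487 genes. CPM are counts scaled to the upper-quartile adjusted library size, and intervals and floors cover counting error or spread between lungs only. Scripts were tested on simulated data.

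Members, classes and lists were chosen with earlier results of these data known. Named genes were the 10 members with the smallest p over all lungs, the 5 with the smallest interaction p, the 3 highest and 3 lowest per kilobase, called members, up to 4 most counted examples a class, and the 3 pathway genes with the smallest p. Other members named (such as Setd4, genes called under RUVr) were picked after their values were seen. Alternatives were TMM, DESeq2, other filters, RUVr, receptor share, background subtraction, leaving out each lung, and sex or replicate terms. Same-numbered lungs of a sex did not deviate together (correlations -0.303, 0.0596 and -0.166), so the numbers were not taken as pairs.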

Additional observations from a re-analysis of the deposited data

Results flagged for a closer look

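In Dixon's test of each exposure's 6 lungs, run on the 18 named members, 2 of 36 groups had a lung apart from the rest, and chance alone marks about 1 in 20. The room air male 1 lung had 30.5 CPM of Smyd1, against 19 in the next room air lung, with a gap of 0.67 of the whole range, and the same lung held 1790 CPM of skeletal muscle markers. The room air female 2 lung had 5.89 CPM of Suv39h2, against 7.65 in the next lung, with a gap of 0.652 of the range, and 69.5% of the level of Suv39h2 equalled the receptor gene density.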

How the results depend on the processing

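The single genes followed through the alternatives kept their direction in all of those run, but not their size. With the receptor share as a covariate Kdm1a moved from -0.18 to -0.011 over all lungs and from -0.52 to -0.064 in females, and Smyd1 over all lungs moved from -0.20 to -0.028 without room air male 1. Of their values, 5 gained a call (Kdm1a, Kdm7a and Smyd1 for the interaction under RUVr) and 5 lost one (Suv39h1 between the sexes). The count of members called remained 0 for hyperoxia over all lungs, in females and in males under every alternative run. Under RUVr 7 (1 factor) and 6 (2 factors) members were called for the interaction. The call of Suv39h1 between the sexes was lost (0 members) with the receptor share as a covariate, with X-linked background subtracted and with background subtracted by X copy number, the last 2 chosen after seeing the data. Leaving out single lungs gave 0 to 1 members, with 0 without room air male 1 or room air female 5. The members' median moved with the receptor share as a covariate, to 0.00010 in females and -0.025 for the interaction. It also changed sign there, by less than the SD of 0.17 between lungs of a group, from -0.069 to 0.015 over all lungs and from 0.054 to -0.034 between the sexes. Leaving out single lungs moved it as well: -0.14 to -0.0095 over all lungs, -0.35 to -0.18 in females, -0.027 to 0.26 in males, -0.48 to -0.21 for the interaction and -0.0071 to 0.12 between the sexes. Counts of members at an unadjusted p under 0.05 with 1 and 2 RUVr factors were 19 and 20 over all lungs (2 without factors). In females they were 34 and 35 (5), in males 14 and 14 (2), for the interaction 34 and 34 (3) and between the sexes 13 and 13 (1). With 1 factor the shares of all genes higher and lower at that p were 6.44% and 10% over all lungs and 14.5% and 15% in females. They were 3.83% and 4.52% in males, 12.7% and 12.8% for the interaction, and 9.5% and 6.34% between the sexes. With 2 factors these shares were not taken.

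Counts of all genes called moved more. For hyperoxia over all lungs the 19 became 10 with background subtracted, 92 and 110 with 1 and 2 RUVr factors and 40 with DESeq2. Leaving out single lungs gave 3 to 37. In females the 1 became 0 with TMM or background subtracted, 8 without a filter, 22 with the receptor share, 1902 and 1925 under RUVr, 89 with DESeq2 and 80 with 6 female lungs alone, and leaving out single lungs gave 0 to 206, the most without room air female 6. In males the 0 became 6 with the receptor share, 16 and 63 under RUVr and 2 with 6 male lungs alone, and leaving out single lungs gave 0 to 1. For the interaction 0 became 2101 and 2184 under RUVr. Between the sexes 559 became 1004 without a filter, 266 with at least 10 counts in every library, 977 with the receptor share, 1006 and 1037 under RUVr, 11 with X-linked background subtracted and 33 by X copy number. The causes were not tested.

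With the replicate block (sex and number, over all lungs) 2 genes were called, and with the number as a block in the females 451, with 0 members in both. Only male 1, female 2 and female 5 occur in both exposures, so these lungs alone set the exposure term of the block fits. The numbers did not pair the lungs. Read depth limits the members least counted: Kdm4d had 39 to 91 counts a lung.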
